A study of Mus musculus with 12 samples.

Results

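The genes *Rbfox1*, *Rbfox2* and *Rbfox3* encode the RBFOX family of splicing regulators, and the SLM2 binding sites within them were taken from the 2 lists of merged eCLIP peaks, 1 for whole brain and 1 for hippocampus. A peak was a member if its centre lay in the span of 1 of the 3 genes and on the strand of that gene, in the mm10 build with GENCODE annotation. This held for 105 of 2057 whole-brain peaks and for 4 of 178 hippocampal peaks, or 109 of 2235 in all. *Rbfox3* held 102 whole-brain and 3 hippocampal peaks, *Rbfox2* held 0 in both lists, and *Rbfox1* held 3 and 1.

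SLM2, the product of *Khdrbs3*, was immunoprecipitated from UV cross-linked tissue of mice aged 30 days, in 3 exposures of 400 mJ/cm2, and the bound RNA was sequenced beside size-matched input (eCLIP). The series holds 12 libraries, with 2 eCLIP and 2 input libraries each for wild-type whole brain, wild-type hippocampus and *Slm2* KO hippocampus, the last of which was the negative control of the study and was not analysed here. For each lysate 1 brain or 4 hippocampi were used, so each list mixes the cell types of its tissue, and the hippocampal libraries were the shallower ones and had more PCR cycles. Each tissue has 1 list in which both replicates are merged, so no value below has a spread between replicates, and peaks of 1 gene are not independent of each other.

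RBFOX proteins bind the element UGCAUG, or its core GCAUG, in introns of pre-mRNA and thereby promote or repress nearby exons. *Rbfox1* is expressed in neurons, heart and muscle and *Rbfox2* more widely, whereas the product of *Rbfox3* is NeuN, the common nuclear marker of mature neurons. SLM2 is a KH-domain protein of the STAR family, a paralog of SAM68, and is known for binding A/U-rich RNA with the tetramer UWAA (UAAA or UUAA) and for controlling an alternatively spliced segment of neurexin mRNAs.

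Most *Rbfox3* sites were rich in G, and the sites found in both tissues were rich in C and A. Examples are shown as the sense strand of the genome in DNA letters, from 5′ to 3′. The following 4 G-rich peaks are the one of highest log2 fold change over input in whole brain, the strongest of the dense group at the start of the gene, 1 member of a tandem repeat, and the peak nearest the 3′ end of the gene. Capitals mark GGWGG (GGAGG or GGTGG) and UWAA (TAAA or TTAA).

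*Rbfox3* chr11:118848705-118848826, minus strand: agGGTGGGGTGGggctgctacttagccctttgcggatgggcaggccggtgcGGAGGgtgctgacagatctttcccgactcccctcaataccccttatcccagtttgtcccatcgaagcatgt

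*Rbfox3* chr11:118909036-118909232, minus strand: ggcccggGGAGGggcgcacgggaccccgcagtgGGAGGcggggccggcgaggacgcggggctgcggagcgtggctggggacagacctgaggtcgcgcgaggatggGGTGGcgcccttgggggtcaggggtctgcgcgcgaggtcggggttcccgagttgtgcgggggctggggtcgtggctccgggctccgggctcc

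*Rbfox3* chr11:118724280-118724420, minus strand: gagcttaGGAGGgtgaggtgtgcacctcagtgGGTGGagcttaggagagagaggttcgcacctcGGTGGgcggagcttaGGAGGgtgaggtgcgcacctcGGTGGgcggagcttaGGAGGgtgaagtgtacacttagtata

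*Rbfox3* chr11:118526568-118526733, minus strand: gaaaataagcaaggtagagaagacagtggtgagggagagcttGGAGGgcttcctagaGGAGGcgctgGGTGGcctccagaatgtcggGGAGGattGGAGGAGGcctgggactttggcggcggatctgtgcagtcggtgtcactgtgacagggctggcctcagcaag

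At 1 place in intron 2 the sequence was poor in G and built of C, A and T, with the unit CTAA, in capitals below, at irregular steps. The 3 hippocampal *Rbfox3* peaks lie there side by side. They are given in their order along the transcript.

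*Rbfox3* chr11:118797860-118797932, minus strand: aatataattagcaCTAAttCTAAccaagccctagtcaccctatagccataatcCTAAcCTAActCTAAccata

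*Rbfox3* chr11:118797444-118797714, minus strand: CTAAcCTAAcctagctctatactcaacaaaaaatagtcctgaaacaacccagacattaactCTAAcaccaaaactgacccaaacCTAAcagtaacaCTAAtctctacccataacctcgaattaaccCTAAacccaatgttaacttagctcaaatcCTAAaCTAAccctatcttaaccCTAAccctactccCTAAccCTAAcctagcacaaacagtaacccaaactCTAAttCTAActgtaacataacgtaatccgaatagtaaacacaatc

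*Rbfox3* chr11:118797138-118797423, minus strand: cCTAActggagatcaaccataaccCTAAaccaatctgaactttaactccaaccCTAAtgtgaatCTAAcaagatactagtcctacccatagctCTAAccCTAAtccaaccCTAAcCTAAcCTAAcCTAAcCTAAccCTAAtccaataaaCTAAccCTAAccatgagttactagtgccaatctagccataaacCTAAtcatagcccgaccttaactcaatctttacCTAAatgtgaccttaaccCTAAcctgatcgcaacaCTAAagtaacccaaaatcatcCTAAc

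The next sequence is shown because it is the *Rbfox3* peak with the most UWAA outside that place (capitals mark UWAA and GGWGG as above). It lies in intron 3, with its centre 268 nt from the nearest annotated exon.

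*Rbfox3* chr11:118670305-118670457, minus strand: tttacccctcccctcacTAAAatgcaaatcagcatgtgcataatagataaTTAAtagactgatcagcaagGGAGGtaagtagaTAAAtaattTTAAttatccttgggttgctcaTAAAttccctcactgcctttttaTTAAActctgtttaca

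All 4 *Rbfox1* peaks are given for comparison, the first 3 from whole brain and the last from hippocampus, with capitals for the same 2 motifs.

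*Rbfox1* chr16:6937124-6937208, plus strand: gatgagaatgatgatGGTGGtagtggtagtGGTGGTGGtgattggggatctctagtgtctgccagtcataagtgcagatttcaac

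*Rbfox1* chr16:7040116-7040196, plus strand: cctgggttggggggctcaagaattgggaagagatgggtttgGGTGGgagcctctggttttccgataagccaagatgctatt

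*Rbfox1* chr16:7336444-7336580, plus strand: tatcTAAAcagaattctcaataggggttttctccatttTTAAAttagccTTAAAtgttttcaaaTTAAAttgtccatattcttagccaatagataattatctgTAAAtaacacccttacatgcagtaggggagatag

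*Rbfox1* chr16:6911090-6911301, plus strand: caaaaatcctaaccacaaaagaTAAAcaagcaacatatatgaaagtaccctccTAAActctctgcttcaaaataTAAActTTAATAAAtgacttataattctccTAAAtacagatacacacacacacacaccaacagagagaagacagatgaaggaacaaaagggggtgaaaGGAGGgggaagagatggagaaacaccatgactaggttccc

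The 3 genes differed widely in how many SLM2 peaks they held. *Rbfox3* spans 421.8 kb of chromosome 11 (118489762 to 118911597, minus strand, ENSMUSG00000025576.17) and had 24.2 whole-brain peaks per 100 kb. *Rbfox1*, on chromosome 16 (5885355 to 7411526, plus strand, ENSMUSG00000008658.16), is longer, at 1526 kb, and had 0.197 per 100 kb. *Rbfox2*, on chromosome 15 (77078990 to 77307004, minus strand, ENSMUSG00000033565.18), spans 228.0 kb and had none that passed the thresholds of the list. Over the whole annotation, 1.92% of protein-coding genes held at least 1 whole-brain peak and 0.378% at least 1 hippocampal peak. No peak lay on the opposite strand of any of the 3 spans. The lists give peaks and not the amount of each RNA.

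**Figure D1:**
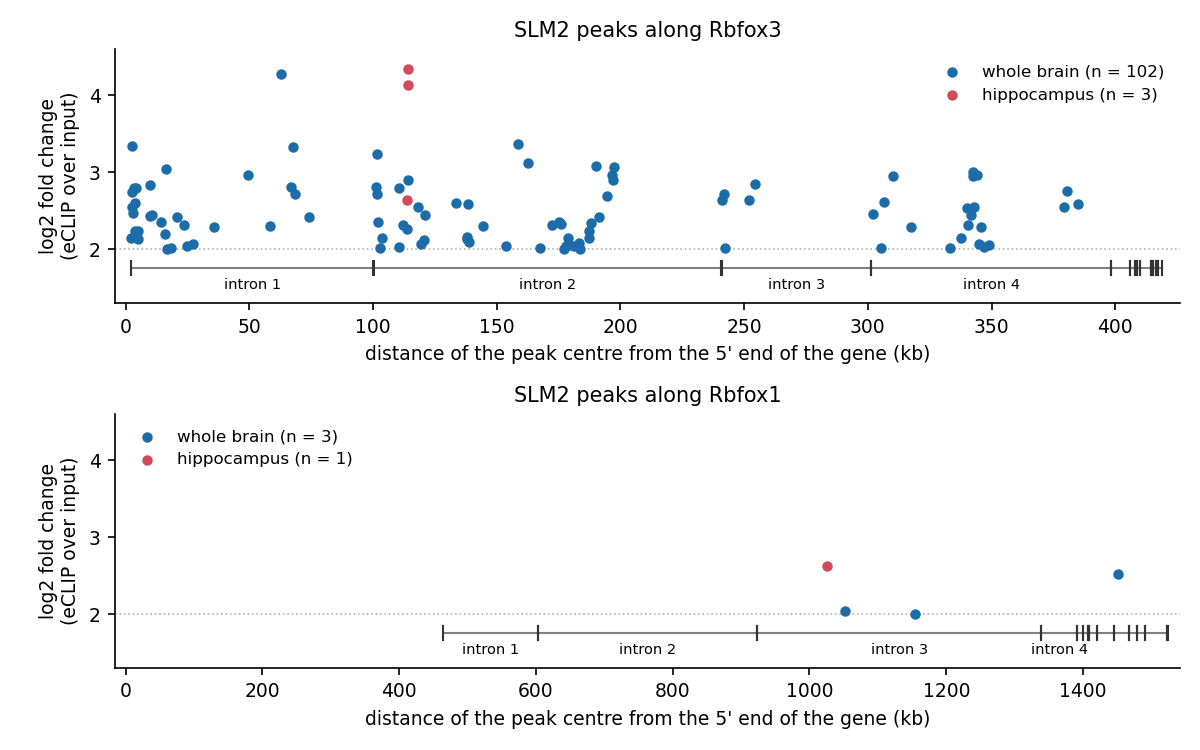
SLM2 peaks along *Rbfox3* (top) and *Rbfox1* (bottom), each point a peak, with the distance of its centre from the 5′ end of the gene in kb on the x axis and its log2 fold change of eCLIP over input on the y axis. Blue points are whole brain, red points hippocampus, the grey line with ticks shows the introns and exons of a transcript with 15 exons, and the dotted line is the threshold of the lists at 2. The 102 whole-brain peaks of *Rbfox3* reach from 2.17 to 384.9 kb, while the 3 of *Rbfox1* lie between 1052 and 1451 kb.

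Within *Rbfox3*, the peaks filled the long introns of the 5′ part of the gene. In a coding transcript with 15 exons, intron 1 (97.9 kb) held 31 whole-brain peaks and intron 2 (140.5 kb) held 44, which is 31.7 and 31.3 peaks per 100 kb. Intron 3 (60.45 kb) held 5, or 8.27 per 100 kb, and intron 4 (96.8 kb) held 21, or 21.7 per 100 kb. These 4 introns take up 93.8% of the span and held 101 of the 102 peaks. The 10 introns after them, 19.7 kb in all, held 0. All 11 coding exons of this transcript lie in the last 36.9 kb of the span, beyond the last peak, so those 101 peaks lay between its untranslated exons or upstream of its first coding exon. GC content varied little with the intron. Its median in the 101-nt windows around the peak centres was 57.4% in intron 1 and 55.4% in intron 2. In intron 3 it was 53.5% and in intron 4 56.4%. UWAA was in 5 of 31 windows in intron 1 and 10 of 44 in intron 2. It was in 3 of 5 in intron 3 and 9 of 21 in intron 4. GGWGG was in 20, 24, 2 and 10 of these windows, in the same order. Differences between introns were not tested.

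Most *Rbfox3* peaks were far from exons. The median distance from a peak centre to the nearest exon of any annotated *Rbfox3* transcript was 8446.5 nt, and 13 of 102 centres were within 500 nt of an exon. The centres of 2 peaks fell in exons, 1 in the untranslated part of the first exon of a coding transcript (chr11:118909383-118909481, log2 fold change 2.15) and 1 in an exon of a non-coding transcript. Within 5 kb of an annotated transcript start were 28 centres. Distances were not computed for other positions of the span, so whether the peaks avoid or favour exons or starts is not shown. In *Rbfox1* all 3 whole-brain peaks were intronic, 2 in intron 3 and 1 in intron 10 of a coding *Rbfox1* transcript with 15 exons, and the median distance to the nearest exon was 29690 nt. Inside *Rbfox3*, the long non-coding gene *Gm11750* on the opposite strand covers the centres of 2 of these peaks, and no peak lay on its own strand.

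Many neighbouring *Rbfox3* peaks lay within 1 kb of each other. Whether more did so than their number in the span would give was not tested. The 101 gaps between neighbouring centres ranged from 98 to 47866 nt with a median of 1143 nt, and 44 of them (43.6%, exact 95% interval 33.7 to 53.8) were under 1 kb. Joined at gaps under 1 kb, the peaks formed 58 groups, of which 38 were single peaks. The longest gap ran from 254.2 to 302.1 kb after the start of the gene, across most of intron 3. *Rbfox1* had only 2 gaps, of 102990 and 296356 nt, and neither was under 1 kb (Fisher's exact test, two-sided, p = 0.506, adjusted p = 0.65 over 9 tests). With these numbers the smallest p that this test can give is 0.18, so it could not have separated the 2 genes.

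**Figure D2:**
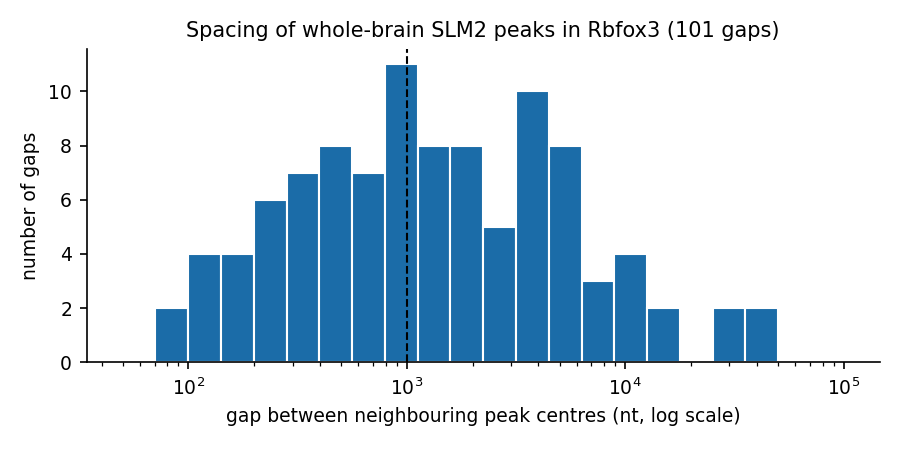
Gaps between the centres of neighbouring whole-brain SLM2 peaks in *Rbfox3*, with the gap in nt on a log-scaled x axis and the number of gaps on the y axis. The dashed line marks 1 kb, below which 44 of the 101 gaps lie.

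The densest stretch was at the 5′ end. A group of 12 peaks lay within 2972 nt (chr11:118906510-118909481), all within 3 kb of the start of the transcript with 15 exons. Their log2 fold changes ran from 2.13 to 3.34 with a median of 2.51, and the GC content of their windows from 49.5% to 78.2% with a median of 62.9%. Of the 12, 11 had no repeat-masked base, 8 had GGWGG in the window and 3 had UWAA. The highest was the peak printed above at chr11:118909036-118909232 (log2 fold change 3.34, −log10 p 12.4), followed by chr11:118908056-118908111 (2.80) and chr11:118907395-118907480 (2.79). A group of 6 peaks lay within 3011 nt of intron 4, all within 2 kb of the annotated start of a shorter coding transcript, with log2 fold changes from 2.31 to 3.00 and a median GC content of 61.9%. Of these 6, 5 had UWAA in the window. A further group of 6 in intron 2 spanned 2469 nt, with log2 fold changes from 2.02 to 3.24.

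By fold change, the *Rbfox3* peaks were mostly near the threshold of the list. The log2 fold change over input ranged from 2.00 to 4.27 with a median of 2.38 in whole brain, against a median of 2.56 for the other 1955 whole-brain peaks. It was at least 2.5 for 1084 of the other 1955 peaks and for 42 of the 102 *Rbfox3* peaks. How many of the other peaks reached 3 was not counted. In *Rbfox3* it was below 2.5 for 60 of the 102 peaks (58.8%) and at least 3 for 10. The 5 highest were chr11:118848705-118848826 in intron 1 (4.27), chr11:118753104-118753158 in intron 2 (3.37), chr11:118909036-118909232 in intron 1 (3.34), chr11:118843755-118843796 in intron 1 (3.32) and chr11:118810006-118810059 in intron 2 (3.24), none with UWAA in its window. The median −log10 p for eCLIP against input was 4.45 in *Rbfox3*, from 2.84 to 54.0, against 4.31 for the other peaks. The 3 whole-brain *Rbfox1* peaks had log2 fold changes of 2.04, 2.00 and 2.52 in their order along the gene and −log10 p of 3.20, 5.29 and 3.55, all inside the range of *Rbfox3*. Fold changes and p were computed by the authors over merged replicates and are given as a description.

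**Figure D3:**
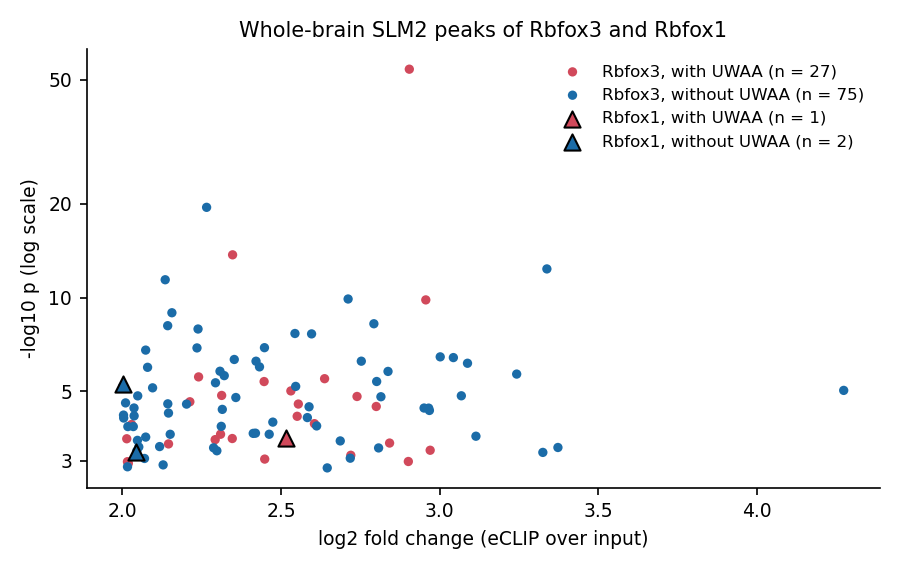
Log2 fold change of eCLIP over input (x axis) and −log10 p on a log scale (y axis) of the whole-brain SLM2 peaks of *Rbfox3* (circles) and *Rbfox1* (triangles), in red with UWAA within 50 nt of the centre and in blue without. The topmost point, at a −log10 p of 54.0, is the long CTAA-rich peak of intron 2, and the 27 *Rbfox3* peaks with UWAA spread over the same range of fold change as most of the 75 without it.

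The *Rbfox3* peaks were richer in G and poorer in A than the average of the rest of the list. The windows of *Grm4* and a few other genes were G-rich as well. In the 101-nt windows centred on the peaks, G averaged 33.1% in *Rbfox3*, against 18.8% in the other 1955 whole-brain peaks, and A averaged 20.7% against 34.4%. The GC content exceeded 50% in 88 of 102 *Rbfox3* windows (86.3%), against 258 of 1955 (13.2%). The whole span of *Rbfox3* also had more GC, 51.9%, against 43.4% in *Rbfox2* and 42.1% in *Rbfox1*. Within *Rbfox3*, G averaged 33.1% at the centres and 27.7% in the flanks centred 500 nt away, and was above the flanks in 75 of 102 windows (73.5%). The same was true of 764 of the other 1955 windows (39.1%). The tetramer GGGU was in 74 of 102 *Rbfox3* windows (72.5%), in 90 of 204 flanks (44.1%) and in 26.7% of the other whole-brain windows, and the pentamer GGGUG was in 42 (41.2%), 42 of 204 flanks (20.6%) and 13.4%. These words were picked for their excess over the flanks, so their counts are a description.

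**Figure D4:**
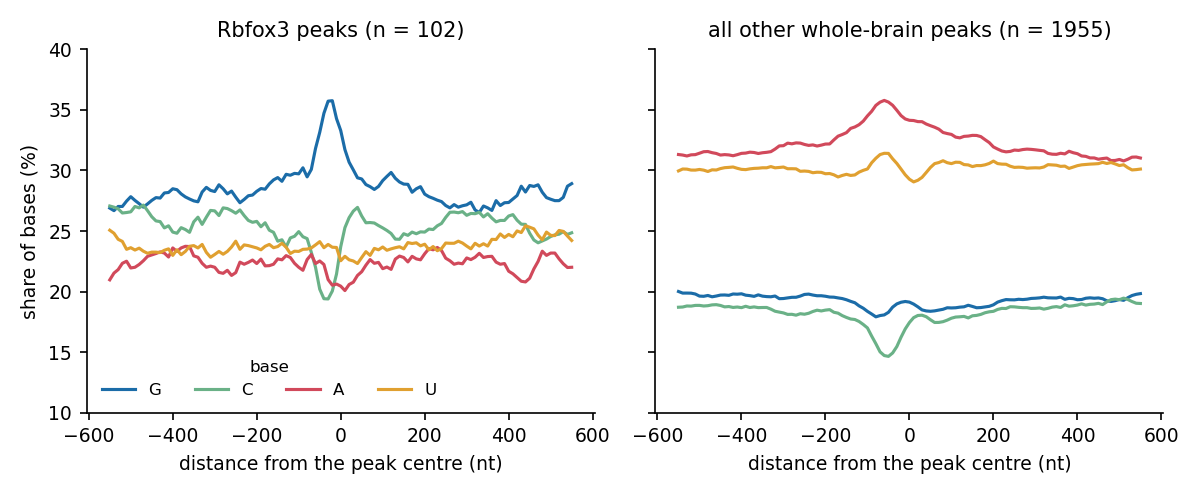
Share of each base in sliding 51-nt windows (y axis, %) by distance from the peak centre (x axis, nt) for the 102 *Rbfox3* peaks (left) and the 1955 other whole-brain peaks (right). In *Rbfox3* the blue line, G, stands above the other bases over most of the range and is highest just upstream of the centre, whereas in the other peaks A and U are the 2 most frequent bases at every distance.

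UWAA, the tetramer known for SLM2, was uncommon at *Rbfox3* peaks. UWAA was present in the windows, which reach 50 nt to each side of the centre, of 27 of 102 *Rbfox3* peaks (26.5%, exact 95% interval 18.2 to 36.1), against 1693 of the other 1955 whole-brain peaks (86.6%, 85.0 to 88.1), which is −60.1 percentage points (Fisher's exact test, two-sided, p = 5.02e-40, adjusted p = 4.52e-39). The letters are also rare in the gene: of the 4176 consecutive 101-nt tiles of the *Rbfox3* span, 30.9% held UWAA, a share close to that of the peaks, against 57.7% in *Rbfox2* and 55.9% in *Rbfox1*. With 1 peak kept for each group of neighbours the difference was −65.0 points (Fisher's exact test, adjusted p = 7.34e-26). The peaks kept still come from 1 gene, so neither p-value measures a spread between genes. Of the 27 peaks with UWAA, 14 had 1 start and the most was 4. Peaks with UWAA had log2 fold changes from 2.01 to 2.97 (median 2.45), and the 75 without it from 2.00 to 4.27 (median 2.35). In *Rbfox1*, 1 of 3 whole-brain windows held UWAA (33.3%, 0.840 to 90.6), namely the peak in intron 10 with 7 starts, and the share did not differ detectably from that of *Rbfox3* (Fisher's exact test, p = 1, adjusted p = 1). The wide interval of the 3 *Rbfox1* peaks leaves nearly any share possible.

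GGWGG, in contrast, was common. It was found in the windows of 56 of 102 *Rbfox3* peaks (54.9%, 44.7 to 64.8), against 416 of the other 1955 (21.3%, 19.5 to 23.2), which is 33.6 percentage points more (Fisher's exact test, two-sided, p = 6.79e-13, adjusted p = 3.05e-12). GGWGG was chosen with earlier results of these same lists known, so this test describes the difference and is no independent support. Of the tiles of the *Rbfox3* span 32.4% held GGWGG, fewer than of the peaks, and it started at 1.02 of 100 positions at the peaks and at 0.490 in the flanks. GGWGG and UWAA were both present in 12 windows and both absent in 31. In *Rbfox1*, 2 of 3 windows held GGWGG (66.7%, 9.43 to 99.2; Fisher's exact p = 1 against *Rbfox3*, adjusted p = 1), and 17.9% of the tiles of its span did. Those 2 are the peaks of intron 3, the first with a short run of GGT triplets and the second with runs of G. With 3 *Rbfox1* peaks the smallest p that Fisher's exact test can give here is 0.0865, so it could not have separated the 2 genes. Motifs were counted on the sense strand only, and GGWGG may share bases with GGGG, which was in 61 of 102 *Rbfox3* windows (59.8%) and 23.4% of the others.

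The core of the RBFOX element, GCAUG, was at few *Rbfox3* peaks. It lay in the windows of 13 of 102 *Rbfox3* peaks (12.7%, 6.96 to 20.8), against 134 of the other 1955 (6.85%, 5.77 to 8.07). The difference of 5.89 percentage points had p = 0.0449 by Fisher's exact test (two-sided) and did not pass after adjustment (adjusted p = 0.101), and 12.6% of the tiles of the *Rbfox3* span held GCAUG, close to the share of its peaks. The call changed with the window. Within 25 nt of the centre GCAUG was in 4 of 102 *Rbfox3* peaks and 74 of the other 1955. This difference of 0.136 points did not pass (Fisher's exact test, adjusted p = 0.892). Within 100 nt it was in 31 of 102 and 263 of the other 1955. That difference of 16.9 points passed (Fisher's exact test, adjusted p = 3.53e-05). The share of the *Rbfox3* span at that width was not counted. Within 50 nt GCAUG started at 0.142 of 100 positions in *Rbfox3* and 0.0744 in the other peaks. In *Rbfox3* the flanks had 0.172 and the whole span 0.160. The full UGCAUG was in 2 *Rbfox3* windows (1.96%), against 3.22% of the others and 5.46% of the tiles of the span. In *Rbfox1* 1 of 3 windows held GCAUG (33.3%, 0.840 to 90.6), with Fisher's exact p = 0.352 against *Rbfox3* (adjusted p = 0.528). A match is a description of the letters and not a binding site.

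**Figure D5:**
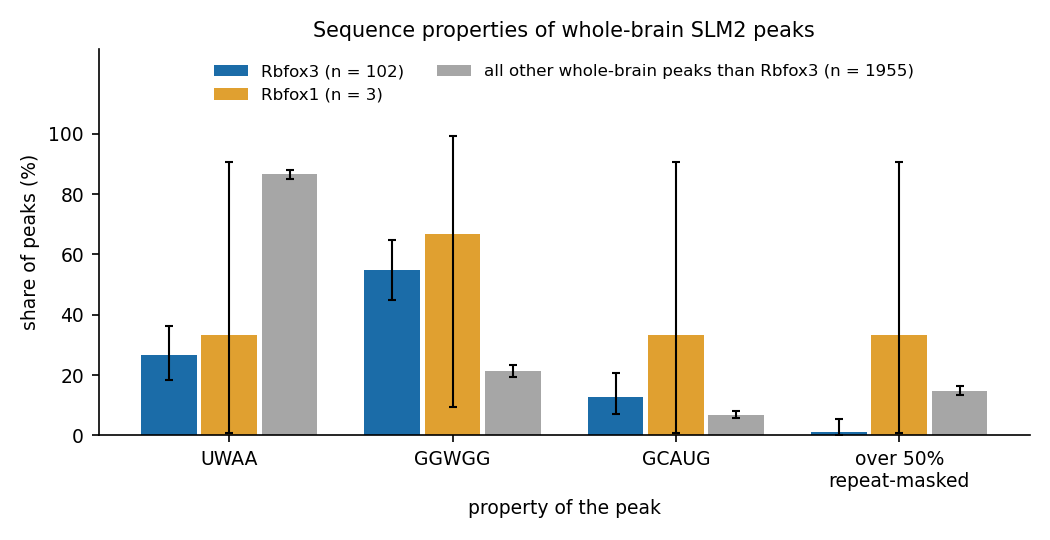
Share of whole-brain SLM2 peaks (y axis, %) with UWAA, GGWGG or GCAUG within 50 nt of the centre and with over 50% repeat-masked bases, for *Rbfox3* (blue, 102 peaks), *Rbfox1* (orange, 3) and all whole-brain peaks outside *Rbfox3* (grey, 1955). Error bars are exact 95% binomial intervals, which cover counting error only. The blue and grey intervals are apart for UWAA, GGWGG and the masked share and overlap for GCAUG, and the orange ones span most of the scale.

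Few *Rbfox3* sites lay in repeats. Over 50% of bases were repeat-masked (lower case in the genome) in 1 of 102 peaks (0.980%, 0.0248 to 5.34), against 289 of the other 1955 (14.8%, 13.2 to 16.4), which is −13.8 percentage points (Fisher's exact test, two-sided, p = 3.35e-06, adjusted p = 1.01e-05). That 1 peak was chr11:118837309-118837448 in intron 1, with 85.7% masked. No base was masked in 68 *Rbfox3* peaks (66.7%), against 28.9% of the other peaks. The *Rbfox3* span as a whole was 15.6% masked and that of *Rbfox1* 21.0%. In *Rbfox1* 1 of 3 whole-brain peaks was over 50% masked (52.6%) and another just below (49.4%). The shares of the 2 genes did not differ past the threshold (Fisher's exact p = 0.0566, adjusted p = 0.102; the smallest p these numbers allow is 0.000549). None of the *Rbfox3* or *Rbfox1* peaks held 10 nt of the sequencing adaptor, which 20 of the other whole-brain peaks did.

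A few *Rbfox3* peaks were tandem repeats although mostly unmasked. Each peak was compared with itself shifted by 1 to 60 nt. At the best shift over 60% of bases matched in 4 of 102 *Rbfox3* peaks and in 32 of the other 1955 whole-brain peaks. The peak chr11:118724280-118724420 matched at 82.9% of bases with a period of 36 nt, and its neighbour chr11:118724422-118724502 at 86.7% with the same period. These 2 were also the only pair among 5151 pairs of whole-brain *Rbfox3* peaks that blastn aligned (90.7% identity over 75 nt), and each had 5 GGWGG starts in its window. The other 2 peaks above 60% were chr11:118801210-118801280 (period 33, 86.8%) and chr11:118887981-118888098 (period 48, 81.4%). All 4 were chosen after their values were seen, as was the UWAA-rich peak printed above. No *Rbfox3* peak aligned with a *Rbfox1* peak.

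Hippocampal peaks of *Rbfox3* fell on the CTAA-rich place of intron 2, 113.7 to 114.3 kb from the start of the gene. The peaks chr11:118797138-118797423 (286 nt) and chr11:118797444-118797714 (271 nt) had log2 fold changes of 4.34 and 4.13 and −log10 p of 6.76 and 8.30, and ranked 4 and 7 of 178 by fold change. Both lie inside 1 whole-brain peak, chr11:118797124-118797723, which at 600 nt was the longest of the whole-brain list and at a −log10 p of 54.0 the 2nd of it, with a log2 fold change of 2.90. The third, chr11:118797860-118797932 (73 nt), had 2.63 and a −log10 p of 1.43, and lies inside the whole-brain peak chr11:118797808-118797951 (2.27, −log10 p 19.5). All 3 hippocampal *Rbfox3* peaks thus shared bases with whole-brain peaks, and 2 of the 102 whole-brain peaks with hippocampal ones. The share of all peaks that overlap between the lists was not counted. These counts, and that of *Rbfox1* below, are therefore a description only.

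This place had little in common with the other *Rbfox3* sites. The 600-nt peak held 32 CUAA, 21 CUAAC and 11 CCCUAA and had 7.17% G, against an average of 33.1% G over the *Rbfox3* windows. CCCUAA, the repeat unit of the C-rich strand of telomeres, was in 77 of the 2057 whole-brain peaks (3.74%) and in 9 of 178 hippocampal ones (5.06%), and the most in a peak outside the 3 genes was 13 in the whole-brain list and 2 in the hippocampal list. The 600-nt peak also held 16 UWAA, of which 4 lay within 50 nt of its centre, and 12.3% of it was masked. Matched against itself, it had its best period at 6 nt but with 44.6% of bases, so the array was degenerate.

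The 1 hippocampal *Rbfox1* peak, chr16:6911090-6911301 in intron 3, had a log2 fold change of 2.62 and a −log10 p of 1.48, and shared no base with a whole-brain peak. It was 57.1% masked and had 4 UWAA starts in its window, as the whole-brain peak of intron 10 had 7, while the 2 whole-brain peaks of intron 3 had none. Tissue, depth and number of PCR cycles differ together between the lists, so these cannot be told apart in the hippocampal counts, and in bulk tissue fewer cells of a type cannot be told apart from less RNA per cell.

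By sequence, the *Rbfox3* windows were most like those of *Grm4*, which encodes a metabotropic glutamate receptor. Over all tetramers, the mean frequencies of *Rbfox3* correlated with those of *Grm4* (31 peaks) with a Pearson r of 0.912, followed by *Ppp2r2c* (0.763, 11 peaks), which encodes a regulatory subunit of protein phosphatase 2A, and *Mbp* (0.743, 13 peaks), which encodes myelin basic protein. The median over the 76 other genes with at least 5 whole-brain peaks was −0.0622. The median GC content of the windows was 58.4% in *Grm4*, 53.5% in *Ppp2r2c* and 54.5% in *Mbp*, and the median share of G was 40.6%, 29.7% and 27.7%. UWAA was in the windows of 6 of 31 *Grm4* peaks (19.4%), 6 of 11 in *Ppp2r2c* and 3 of 13 in *Mbp*, and GGWGG in 26 of 31 (83.9%), 6 of 11 and 4 of 13. G-rich windows with little UWAA were thus not particular to *Rbfox3*. The 3 *Rbfox1* windows were most like *Kctd16* (0.538), *Phactr1* (0.466) and *Fgf14* (0.437), with a median of 0.333 over 77 genes. All points come from 1 merged list and share base composition, and with 3 windows the *Rbfox1* values are uncertain.

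Among other regulators of splicing, several carried SLM2 peaks, in whole brain mostly with UWAA. The list of 59 neuronal and general splicing regulators includes the *Rbfox* genes. Of these 59, 13 had a whole-brain peak (22.0%, beside 1.92% of all protein-coding genes) and 4 a hippocampal one (6.78%, beside 0.378%). Without the *Rbfox* genes, 11 of them held 50 whole-brain peaks and 2 of them held 4 hippocampal peaks. *Celf2*, which encodes a CELF-family splicing regulator, had 31, all with UWAA in the window, at a median GC content of 30.7% and 3.20 peaks per 100 kb. *Celf4*, which encodes another CELF-family member, had 4, all with UWAA. *Elavl3*, which encodes a neuronal Hu protein, had 2, 1 of them with UWAA, at a median GC content of 61.4%. *Nova1*, *Khdrbs2*, *Khdrbs3*, *Srrm3*, *Qk*, *Tia1* and *Tardbp* had 1 each, all with UWAA. In hippocampus, *Celf2* had 3 peaks, none with UWAA, at a median GC content of 50.5%, and *Tardbp*, which encodes TDP-43, had 1, with UWAA. These genes were listed with earlier results known and differ in length, so the counts are a description.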

How the data were processed

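SLM2 eCLIP and size-matched input libraries were made from wild-type whole brain and hippocampus. Per the submitters' processing notes, adaptors were cut with cutadapt 3.4, STAR 2.7.9 was the aligner (mm10) and UMI-tools 1.1.1 collapsed PCR copies. CLIPper peaks of both replicates were merged by IDR at thresholds of 2 for log2 fold change and −log10 IDR. The deposited columns hold the log2 fold change of eCLIP over input and the −log10 p of each peak, and a score, the −log10 IDR, all computed by the authors; they carry no names and were read through the study's table of peaks. Read counts and *Slm2* KO libraries were not analysed here, and the lists hold no expression of marker genes with which to check the tissues.

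Peaks were placed in genes of GENCODE vM21 by their centre and strand, and the sequence was read from the GRCm38 genome (RefSeq assembly, repeats in lower case), the same build as mm10, with samtools 1.23.1. Motifs were counted on the sense strand within 50 nt of the centre and in flanks centred 500 nt away. Shares carry exact (Clopper-Pearson) 95% binomial intervals and were compared by two-sided Fisher's exact tests with Benjamini-Hochberg adjustment over 9 tests, at 0.05. Peaks of 1 gene are not independent, so each share was also tested with 1 peak per group of centres under 1 kb apart. The peaks left still share 1 gene and its base composition, so p does not measure a spread between genes. The counting of UWAA was checked on planted sequences and Fisher's test on simulated independent peaks, which does not cover dependence within 1 gene. Likeness used blastn 2.17.0 (E value 1e-05). Python 3.11.15, scipy 1.17.1 and matplotlib 3.10.9 were used.

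The genes, the list of splicing regulators and the motifs were chosen with earlier results of these data known. Named were the *Rbfox* genes, list members with a peak (1 is not reported here), the 3 genes most like *Rbfox3* and *Rbfox1* in tetramers, overlapping genes with a peak, and, per gene and tissue, the 5 peaks of highest fold change, those shared by the tissues, the first and last, and up to 3 of the densest 5 kb; other peaks were named after their values were seen.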

Additional observations from a re-analysis of the deposited data

How the results depend on the processing

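No paired analysis was possible because each tissue has 1 list with both replicates merged, and no replicate was left out. Depth per peak is not in the lists. Stricter thresholds lowered the whole-brain count of *Rbfox3* from 102 to 42 with fold changes of 2.5 or more on the log2 scale and to 38 at a −log10 p of at least 5, and 1 peak per group of neighbours left 58. Of the other 1955 whole-brain peaks, the same 3 settings left 1084, 696 and 1476. The whole-brain count of *Rbfox1* was 1 under either threshold. In hippocampus the groups left 1 *Rbfox3* peak, and the threshold on p left 0 *Rbfox1* peaks. With centres within 100 nt, 1 of the 3 hippocampal *Rbfox3* peaks matched a whole-brain peak.

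Against the other whole-brain peaks, the differences in UWAA (−70.4 to −39.1 percentage points), GGWGG (21.2 to 54.7) and masked share (−32.0 to −13.2) kept their direction and passed the adjusted threshold under every alternative, all chosen for this comparison after seeing the data. That in GCAUG (0.136 to 16.9 points) passed at a −log10 p of at least 5 (13.1 points, 7 of 38 peaks against 37 of 696, Fisher's exact test, adjusted p = 0.0119) and in windows of 100 nt (16.9). The cause was not tested.

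In whole brain *Rbfox1* had 3 peaks or fewer in every run, so some tests against it could not have passed whatever the data. Against *Rbfox1*, no difference passed under any alternative run, which does not show that the 2 genes are alike, and 8 of 32 changed sign. GGWGG differed by 54.8 and GCAUG by 14.3 points with log2 fold changes of 2.5 or more, UWAA and GCAUG by 18.4 each at a −log10 p of at least 5, and UWAA by 25 and GCAUG by 14.3 in windows with at most 20% masked bases, each with 1 *Rbfox1* peak left. GCAUG differed by 3.92 in windows of 25 nt and GGWGG by 4.90 in windows of 100 nt. With 1 *Rbfox1* peak there are no gaps, so spacing had no value under the stricter thresholds.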
